A study of Mus musculus with 55 samples.

Results

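Transcripts of 5 genes for proteins that act on actin filaments, Evl, Pfn1, Cfl1, Capg and Actn4, were followed through 5 stages of mouse B cell development. The genes were taken by name: every probe set of either array design that the array annotation gives 1 symbol, and that symbol is 1 of the 5, was included. This gave 11 probe sets, of 13069 on the arrays, for 5 of the 6137 genes with such a probe set. After removal of dim probe sets, 9 of the 11 were among the 10229 tested, and all 5 genes kept at least 1.

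Actin is a globular protein that polymerises into filaments, and the filament network under the plasma membrane sets cell shape, stiffness and motility. Profilin, encoded by Pfn1, binds actin monomers and feeds them to growing barbed ends, and Evl is a member of the Ena/VASP family, which holds barbed ends open for elongation and takes up profilin-bound monomers. Cofilin, encoded by Cfl1, severs and disassembles old filaments, the gelsolin family protein encoded by Capg caps barbed ends without severing, and alpha-actinin-4, encoded by Actn4, crosslinks filaments and ties them to adhesion sites. In B cells the same network shapes antigen receptor signalling and cell spreading, and in the bone marrow it serves adhesion to stroma and exit to the blood. Between the large and the small pre-BII stage, cells that have been dividing leave the cell cycle and become smaller.

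RNA came from cells sorted from mouse bone marrow. The gates were B220+ c-kit+ for pre-BI, B220+ CD25+ with no surface immunoglobulin for pre-BII, split by size into a large and a small fraction, B220low sIgM+ for immature B and B220hi sIgM+ for mature B cells. No genotype, strain, age or treatment is given in the sources used here, and all groups are populations of the same tissue, so none served as an untreated control. The 26 preparations (6 pre-BI, 5 for every other population) carry sort numbers and were each hybridised to both array designs, named first set and b set below. Nothing in the labels ties preparations to separate animals. The p-values thus cover the spread among these preparations alone, which may be technical.

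Of the 55 arrays 54 were used, because a first-set array titled as a repeat of mature B sort 1 was identical in its 6584 values to that of mature B sort 11 and entered once, as sort 11. The labels do not settle which title is right, and if it is the other, the first-set mature B values cover 4 preparations. An 18S ribosomal RNA control probe set separated the sorts into an early batch (sorts 1 to 3, 3741 to 14192 on the first set) and a late batch (sorts 8 to 11, -452 to 28). Early and late refer to low and high sort numbers alone, because the sample titles give no date or batch. Each batch held all 5 populations, and values within a batch are given where a member's call in 1 of the 5 main comparisons was not reached there. Levels below are intensities after quantile normalisation. A noise limit of 2 robust standard deviations of the negative values was 251 for the first set and 319 for the b set, and levels under it were read as not above background. Folds are between means of log2 levels with values under the limit raised to it, written "at least" where values of the dimmer population alone were raised. Where values of both populations were raised the fold is no bound. Adjusted p-values are from limma over all 10229 tested probe sets, with Benjamini-Hochberg adjustment within a comparison, and "rose" and "fell" are used where the adjusted p was under 0.05. In bulk RNA, fewer cells of a type and less RNA per cell cannot be told apart.

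The labelled cell types were checked against markers. All 9 B lineage genes on the arrays passed the limit somewhere. Cd79b, a chain of the B cell receptor complex, Cd79a, Cd24a, Cd72, Spib and Pou2af1 passed it in 26 of 26 preparations. Ebf1 passed the limit in 23, Cd22 in 15 (mean 58.2 for pre-BI, 95.3 for large pre-BII cells) and Pax5 in 1. Kit passed it in 2 preparations, with a pre-BI mean of 285 and a large pre-BII mean of 72.5, and Il2ra, which encodes CD25, passed it in 1. Among 17 granulocyte and monocyte genes, 5 (Mpo, Ctsg, Ltf, Csf3r and Csf1r) never passed the limit while Lyz2, Ngp and Fcer1g did in all 26. The summed level of these 17 genes was 12045 to 30012 in pre-BI, 6191 to 13709 in large pre-BII, 5281 to 8625 in small pre-BII, 7485 to 10136 in immature and 10135 to 13987 in mature cells. Among 11 T and NK genes 6 never passed the limit. The summed level of the 11 was 1371 to 5237 in pre-BI and 778 to 1550 in large pre-BII cells. It was 481 to 1576 in small pre-BII, 346 to 765 in immature and 432 to 756 in mature cells. Of 8 erythroid and megakaryocyte genes, Hba-a1 and Hbb-b2 passed the limit in all 26 preparations and Epor and Gata1 in none. Klf1, Car1, Car2 and Alas2 passed it in 20, 21, 21 and 16. The summed level of the 8 was 9826 to 24721 in pre-BI, 13171 to 22234 in large pre-BII and 7401 to 16521 in small pre-BII cells. It was 14902 to 20572 in immature and 17426 to 23620 in mature cells.

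**Figure D1:**
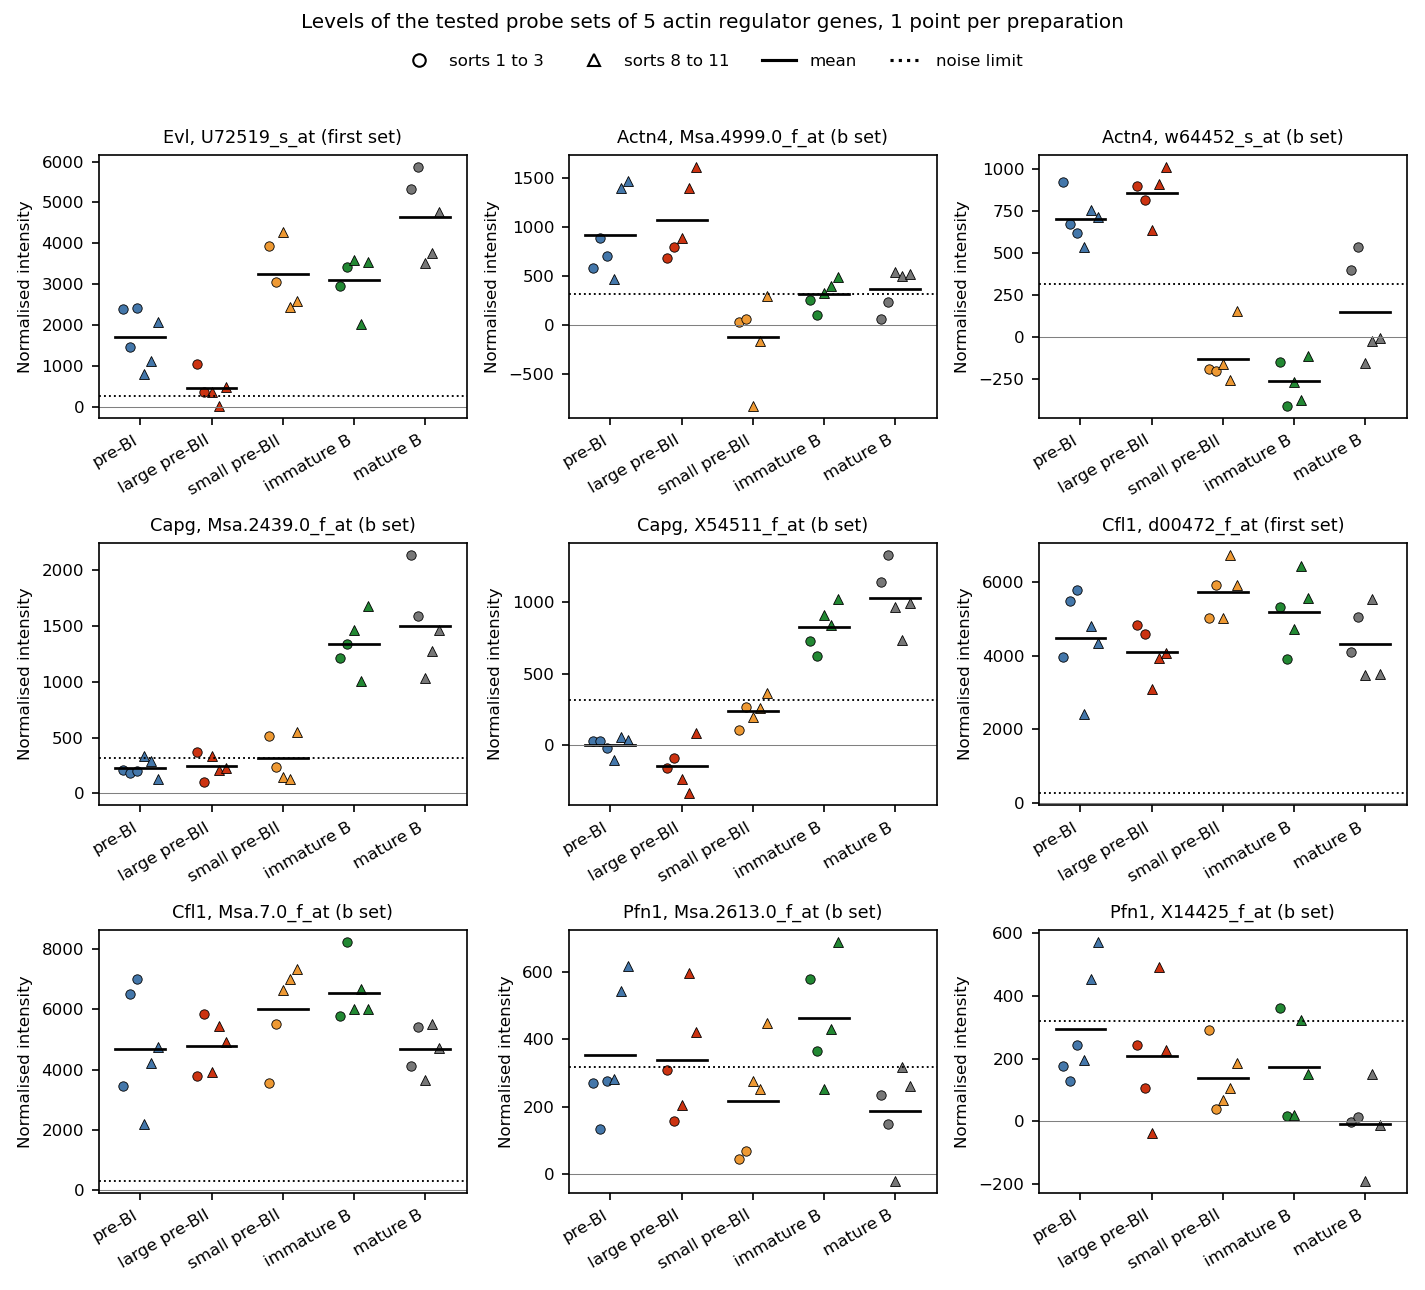
Normalised intensity (y axis, linear) of the 9 tested probe sets in the 5 populations (x axis), with 1 point per preparation, a circle for sorts 1 to 3 and a triangle for sorts 8 to 11, the population mean as a bar and the noise limit as a dotted line. Evl is lowest in large pre-BII cells, both Actn4 probe sets drop under the limit in small pre-BII cells, both Capg probe sets are above it in every immature and mature preparation, and Cfl1 is bright throughout.

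The passage from large to small pre-BII cells held the largest share of called members among the consecutive steps. Of the 9 tested member probe sets 4 passed, against 5.3% of all tested probe sets in that comparison: Evl and 1 Capg probe set rose and both Actn4 probe sets fell. The genes were chosen with these results known, so the count describes the members and does not test them as a group. In large pre-BII against pre-BI cells 1 of 9 passed (Evl, lower), against 1.87% of all. With sort number as a block in that comparison, 327 probe sets passed in place of 191, and Evl was again the 1 member. In immature against small pre-BII cells 2 of 9 passed (Capg and Actn4, both higher), against 2.19%. In mature against immature cells 0 of 9 passed by limma, against 1.35% of all. At an unadjusted p under 0.05 (limma) there were 3, a cutoff at which all probe sets were not counted for this step. In mature against pre-BI cells 5 of 9 passed, against 10.8%. Over the 5 populations together, 6 of the 9 varied by the moderated F test, against 14.8% of all. The exceptions were the Cfl1 probe set of the first set (adjusted p = 0.374), that of the b set (adjusted p = 0.337) and 1 of the 2 Pfn1 probe sets (adjusted p = 0.33, limma).

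The Ena/VASP protein gene Evl rose at the change of cell size after a fall at the step before. It was measured by U72519_s_at on the first set, whose suffix marks probes that can match more than 1 transcript. Its level was 1052, 357, 365, 11.4 and 479 in large pre-BII sorts 1, 2, 8, 9 and 10. In small pre-BII sorts 1, 3, 8, 9 and 10 it was 3922, 3051, 4273, 2436 and 2576. The lowest small pre-BII preparation was above the highest large one, and 4 of 5 large preparations were above the noise limit. Evl rose at least 7.21-fold (log2 difference 2.85 ± 0.38 SE, n = 5 and 5, adjusted p = 6.07e-07 by limma). The fit, which uses a lower floor, put the ratio at 8.90 with a 95% interval from 5.11 to 15.5. Within the early batch the fitted log2 difference was 2.50 (adjusted p = 0.0237, limma) and within the late batch 3.59 (adjusted p = 0.000215, limma).

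Pre-BI cells had more Evl than large pre-BII cells. In the 6 pre-BI preparations its lowest, median and highest levels were 789, 1765 and 2420.3, so that 1 large pre-BII preparation, sort 1, lay inside the pre-BI range and the other 4 lay under it. Evl fell at least 3.58-fold from pre-BI to large pre-BII cells (log2 difference -1.84 ± 0.44 SE, n = 6 and 5, adjusted p = 0.00053 by limma). This call was not reached within the early batch, with a fitted log2 difference of -1.73 (adjusted p = 0.247, limma), or on the values as deposited (-1.82, adjusted p = 0.301). The granulocyte and monocyte sum and the T and NK sum above also had higher medians in pre-BI than in large pre-BII cells. The part of such cells in the Evl difference was not tested.

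Evl was also high in the later stages. Immature B sorts 1, 2, 8, 9 and 11 read 2957, 3424, 3581, 2017 and 3551, overlapping small pre-BII cells (log2 difference -0.06 ± 0.22 SE, 95% interval of the fit -0.86 to 0.74, adjusted p = 0.994 by limma). Mature B sorts 1, 3, 8, 9 and 11 read 5331, 5859, 3509, 3769 and 4757, the highest mean of the 5 populations at 4645 ± 1002 (SD, n = 5). The mature levels overlapped the immature ones, and that difference did not pass (log2 difference 0.58 ± 0.21 SE, adjusted p = 0.84 by limma). All 5 mature preparations were above all 6 pre-BI preparations, and Evl was 2.89-fold higher there (log2 difference 1.53 ± 0.30 SE, adjusted p = 0.00475 by limma). With a floor at the 25th percentile (adjusted p = 0.145) or on deposited values (adjusted p = 0.0823), and within the early batch (fitted log2 difference 1.46, adjusted p = 0.1), that last call was lost (limma). Without sort 11, whose first-set array has a second title, the fitted difference was 1.52 (adjusted p = 0.0129, limma). In order of mean level, large pre-BII cells (453 ± 378 SD, n = 5) came first, then pre-BI (1708 ± 691, n = 6), immature B (3106 ± 658, n = 5), small pre-BII (3252 ± 815, n = 5) and mature B cells. Of these neighbours only large pre-BII and pre-BI differed past the threshold.

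The RefSeq promoter table used here holds 2 transcription starts for Evl on the GRCm38.p6 build, and the windows of 300 bases around them, 250 before and 50 after the start, are shown because the probe set does not tell which start is used. In these and the later windows, capitals mark matches to any of 6 motifs searched on both strands: the GC box GGGCGG, the CCAAT box CCAAT, the TATA box TATAAA, the cell cycle homology region TTTGAA, the E box CACGTG and the SRF CArG box. Among 32851 promoter windows of that length the GC box was present in 35.7%, the CCAAT box in 37.4%, the TATA box in 13.6%, the cell cycle homology region in 17.9%, the E box in 7.15% and the CArG box in 1.63%. All 5 genes had an entry.
Evl, upstream start, chr12:108554470-108554769, plus strand: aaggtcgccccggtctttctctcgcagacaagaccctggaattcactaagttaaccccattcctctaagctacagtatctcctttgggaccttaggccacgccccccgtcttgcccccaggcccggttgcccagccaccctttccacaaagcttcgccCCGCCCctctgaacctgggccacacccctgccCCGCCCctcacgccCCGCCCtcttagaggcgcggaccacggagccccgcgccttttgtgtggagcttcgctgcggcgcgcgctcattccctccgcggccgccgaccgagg
Evl, downstream start, chr12:108605516-108605815, plus strand: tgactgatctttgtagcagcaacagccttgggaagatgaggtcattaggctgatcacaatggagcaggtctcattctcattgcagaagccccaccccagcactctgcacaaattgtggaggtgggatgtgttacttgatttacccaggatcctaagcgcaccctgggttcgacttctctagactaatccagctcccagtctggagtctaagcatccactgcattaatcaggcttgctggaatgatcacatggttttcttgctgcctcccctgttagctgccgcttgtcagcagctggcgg
The first window was 66.3% G and C and held 3 GC boxes, and the second was 51.3% G and C and held none of the 6 motifs. A match is a description of the letters and not of a bound site.

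Both Pfn1 probe sets read near background on these arrays. Whether they detect the profilin-1 transcript well was not tested, so the readings do not show that it is scarce. Pfn1 was measured on the b set by X14425_f_at and by a probe set whose identifier begins with Msa, which the annotation traces to the same source sequence. The suffix of both marks a match to a family of sequences. All tested Cfl1 and Capg probe sets and the Actn4 Msa probe set carry the same suffix. By the Pfn1 Msa probe set the level was 307, 156, 206, 598 and 423 in large pre-BII cells and 42.6, 68.5, 277, 251 and 449 in small ones, with 9 of all 26 preparations above the limit. These groups overlapped and did not differ past the threshold (95% interval of the fitted log2 difference -2.52 to 0.61, adjusted p = 0.633 by limma). Immature cells had its highest mean, 463 ± 173 (SD, n = 5), with 4 of 5 preparations above the limit, and mature cells had the lowest, 188 ± 132 (SD, n = 5), with none. That step was not called (1.44-fold with values of both populations raised, adjusted p = 0.402 by limma).

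The other Pfn1 probe set, X14425_f_at, exceeded the limit in 5 of 26 preparations. Its pre-BI levels had a lowest, median and highest value of 129.8, 219 and 572, and its mature B levels were -3.11, 12.0, -189.9, 149.6 and -10.9. The highest mature preparation lay inside the pre-BI range and the other 4 under it. Mature cells were lower than pre-BI cells in the fit (adjusted p = 0.00504 by limma), but by 1.17-fold once values of both populations were raised to the limit. With the floor at the limit (adjusted p = 0.238) or at the 60th percentile (adjusted p = 0.0672), and within either batch (adjusted p = 0.183 and 0.1, limma), the call was lost. Over the 26 preparations the log2 levels of both Pfn1 probe sets correlated at r = 0.47, a description over preparations that share their arrays and their source sequence.

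Cofilin transcripts were bright in every preparation. Cfl1 was measured once on each set, by d00472_f_at on the first and by an Msa probe set on the b set, which stem from the same source sequence, and both were above the limit in 26 of 26 preparations. On the first set large pre-BII cells read 4829.6, 4582, 3083, 3946 and 4073 and small pre-BII cells 5009, 5915, 5024, 6743 and 5915. Each small preparation was above each large one, although the distance was short. The difference was 1.40-fold (log2 0.49 ± 0.14 SE, 95% interval of the fit 0.06 to 0.91), and its adjusted p over all probe sets was 0.226 by limma. The two-sided exact permutation test over these 10 preparations gave an unadjusted p = 0.00794, the smallest that 5 against 5 can give.

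On the b set the same step was smaller and the groups overlapped. Large pre-BII cells read 3789, 5845, 3922, 5449 and 4921 by the Msa probe set and small ones 3544, 5504, 6627, 7000.2 and 7326. Small pre-BII sort 1 was the lowest of all 10 and sorts 8, 9 and 10 were above every large preparation (log2 difference 0.30 ± 0.23 SE, 95% interval of the fit -0.19 to 0.79, adjusted p = 0.631 by limma). No comparison of Cfl1 passed the threshold on either set. Its means ran from 4103 ± 675 (SD, n = 5) in large pre-BII to 5721 ± 727 (SD, n = 5) in small pre-BII cells on the first set, and from 4679 ± 804 (SD, n = 5) in mature B to 6543 ± 997 (SD, n = 5) in immature B cells on the b set. The intervals of the fit leave room for a change of up to 0.91 on the log2 scale between large and small cells, so equal levels were not shown.

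The barbed-end cap gene Capg was highest in immature and mature B cells. By its Msa probe set on the b set, small pre-BII sorts 1, 3, 8, 9 and 10 read 514, 239, 143, 129.6 and 553, and immature B sorts 1, 2, 8, 9 and 11 read 1210.3, 1336, 1467, 1011 and 1679. Every immature preparation was above every small pre-BII preparation, of which 2 were above the limit. Capg rose at least 3.37-fold (log2 difference 1.75 ± 0.22 SE, n = 5 and 5, adjusted p = 0.000368 by limma). The call was not reached within the early batch, where the fitted log2 difference was 1.86 (adjusted p = 0.505, limma), and was within the late one (2.64, adjusted p = 0.00919, limma).

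Mature cells were high as well. Their readings on this probe set were 2139.6, 1594, 1035, 1279 and 1467, overlapping the immature ones (log2 difference 0.14 ± 0.21 SE, 95% interval of the fit -0.67 to 0.96, adjusted p = 0.991 by limma). In the 6 pre-BI preparations the lowest, median and highest level was 132, 204 and 331, so all mature preparations were above all pre-BI ones, of which 1 was above the limit. Capg was at least 4.55-fold higher in mature than in pre-BI cells by this probe set (log2 difference 2.19 ± 0.17 SE, adjusted p = 2.36e-06 by limma). Large pre-BII cells read 375, 103, 335, 210.1 and 224, within reach of the pre-BI and small pre-BII levels.

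A second Capg probe set, X54511_f_at, of the same source sequence, also had its highest levels in immature and mature cells. It read 729, 627, 913, 839.8 and 1021 in immature and 1141, 1332, 967, 735 and 992 in mature cells, and no pre-BI preparation was above the limit. Mature cells were at least 3.18-fold higher than pre-BI cells (log2 difference 1.67 ± 0.14 SE, adjusted p = 1.25e-07 by limma). From small pre-BII to immature cells it was at least 2.49-fold higher without overlap, and that step did not pass at the main floor (adjusted p = 0.231, limma) but did with the floor at the noise limit (adjusted p = 3.62e-06, limma).

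The same probe set rose between large and small pre-BII cells, at levels close to background. Large pre-BII cells read -159, -87.5, -236, -336 and 88.6 and small ones 109.9, 265, 199, 259.9 and 364, without overlap, and 1 of these 10 preparations, small pre-BII sort 10, was above the limit. The fit called it (adjusted p = 5.08e-05 by limma), while with values of both populations raised to the noise limit the difference came to 1.03-fold. With the floor at the limit (adjusted p = 0.951) and within the early batch (fitted log2 difference 4.63, adjusted p = 0.105) the call was lost (limma), and the Msa probe set showed no called difference at this step (log2 difference 0.24 ± 0.19 SE, adjusted p = 0.885 by limma). Over the 26 preparations both probe sets correlated at r = 0.75. The last Capg probe set, T25528_rc_at on the first set, was negative in all 26 preparations and was not tested.

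Capg is also expressed in macrophages. The granulocyte and monocyte sum had its highest median in pre-BI cells, 18411, and its medians in small pre-BII, immature and mature cells were 6646, 9856 and 10796. Between small pre-BII and mature cells the list's median log2 difference was 0.85 over 14 tested genes, against -0.01 over all probe sets, and 2 of its 15 probe sets were called, both higher. In immature against small pre-BII cells the median was 0.54 against -0.02, with 1 of the 15 called, higher. In mature against pre-BI cells the list's median was -0.30 against 0.04, with 1 probe set called higher and 2 lower. Of its genes, Lyz2, Ngp and Fcer1g were above the limit in all 26 preparations and the receptor gene Csf1r in none. The part of such cells in the Capg differences was not tested. The RefSeq window around the Capg start is shown because both tested probe sets had their highest means in the surface IgM+ populations.
Capg, chr6:72549397-72549696, plus strand: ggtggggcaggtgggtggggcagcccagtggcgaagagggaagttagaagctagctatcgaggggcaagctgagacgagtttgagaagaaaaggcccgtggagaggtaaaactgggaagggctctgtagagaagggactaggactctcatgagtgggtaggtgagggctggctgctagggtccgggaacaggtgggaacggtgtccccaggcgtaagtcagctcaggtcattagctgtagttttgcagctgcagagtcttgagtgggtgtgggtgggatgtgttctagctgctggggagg
It was 58% G and C and held none of the 6 motifs.

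The crosslinker gene Actn4 fell at the same step at which Evl rose. Its Msa probe set on the b set has the suffix for a match to a family of sequences. By that probe set, large pre-BII sorts 1, 2, 8, 9 and 10 read 688, 798, 890.3, 1397 and 1611, and small pre-BII sorts 1, 3, 8, 9 and 10 read 29.8, 62.4, -832, -162 and 294. All large preparations were above the noise limit and no small one was. Actn4 fell at least 3.20-fold (-1.68 ± 0.24 SE on the log2 scale, n = 5 and 5, adjusted p = 1.55e-05 by limma).

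A second probe set, w64452_s_at, designed from a different source sequence, fell too. It read 900.4, 813, 637, 911 and 1008 in large and -188, -200.3, -160.4, -251 and 156 in small pre-BII cells, without overlap. The fall was at least 2.65-fold (-1.41 ± 0.11 SE on the log2 scale, adjusted p = 0.000193 by limma). Within the early and the late batch the adjusted p was 0.0329 and 0.00158 for the Msa probe set and 0.00332 and 0.0103 for w64452_s_at (limma). The last Actn4 probe set, aa529228_at on the first set, lay between -228 and 91.4 in all 26 preparations, under the limit throughout, and was not tested.

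Pre-BI and large pre-BII cells were not separated by Actn4. The lowest, median and highest pre-BI values were 469.6, 798 and 1475 by the Msa probe set (adjusted p = 0.987 against large pre-BII by limma) and 535, 694 and 921 by w64452_s_at (adjusted p = 0.989). The 95% intervals of those fitted log2 differences, -1.18 to 1.73 and -1.76 to 2.33, were wide.

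In immature cells 1 of the 2 tested probe sets was called higher than in small pre-BII cells. The Msa probe set read 254, 99.3, 329, 398 and 488 in immature cells, with 3 of 5 above the limit, and was the called one (adjusted p = 0.0123 by limma), by 1.15-fold with values of both populations raised. That call was lost without small pre-BII sort 8 (adjusted p = 0.0584, limma) or sort 9 (adjusted p = 0.0634, limma) and with the floor at the limit (adjusted p = 0.918) or at the 60th percentile (adjusted p = 0.268). It was also lost on deposited values (adjusted p = 0.176), without second arrays (adjusted p = 0.0822) and within the early batch (fitted log2 difference 1.88, adjusted p = 0.716) by limma. By w64452_s_at no immature preparation was above the limit, with readings from -408 to -109.6.

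Mature B cells were split by batch in w64452_s_at. Sorts 1 and 3 read 397 and 534, above the limit, and sorts 8, 9 and 11 read -150.3, -24.5 and -4.19. Mature cells were at least 1.88-fold lower than pre-BI cells (log2 difference -0.91 ± 0.18 SE, adjusted p = 0.00359 by limma). The groups all but touched, with mature sort 3 at 534.2 and the lowest pre-BI preparation at 534.7. That mature level is the average of repeat arrays that read 639 and 429. On the fitted scale the difference was -0.66 within the early batch (adjusted p = 0.865, limma) and -6.58 within the late one (adjusted p = 0.00103, limma). The difference between the batches was not tested. The Msa probe set read 54.4, 232, 545, 497 and 520.2 in mature cells and was not called against pre-BI cells (at least 1.97-fold lower, adjusted p = 0.197 by limma). The correlation of both probe sets over the 26 preparations was r = 0.57.

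The RefSeq window around the Actn4 start is given as the counterpart of the Evl windows, since both genes were called in opposite directions at the same step.
Actn4, chr7:28962283-28962582, minus strand: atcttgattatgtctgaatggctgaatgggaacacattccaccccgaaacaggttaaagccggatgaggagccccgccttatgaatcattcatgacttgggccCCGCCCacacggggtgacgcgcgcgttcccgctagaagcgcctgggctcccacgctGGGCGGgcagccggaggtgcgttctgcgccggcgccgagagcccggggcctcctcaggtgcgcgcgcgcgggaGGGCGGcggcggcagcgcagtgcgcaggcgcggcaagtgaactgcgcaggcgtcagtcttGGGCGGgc
It was 68% G and C and held 4 GC boxes, against 3 in the upstream Evl window.

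**Figure D2:**
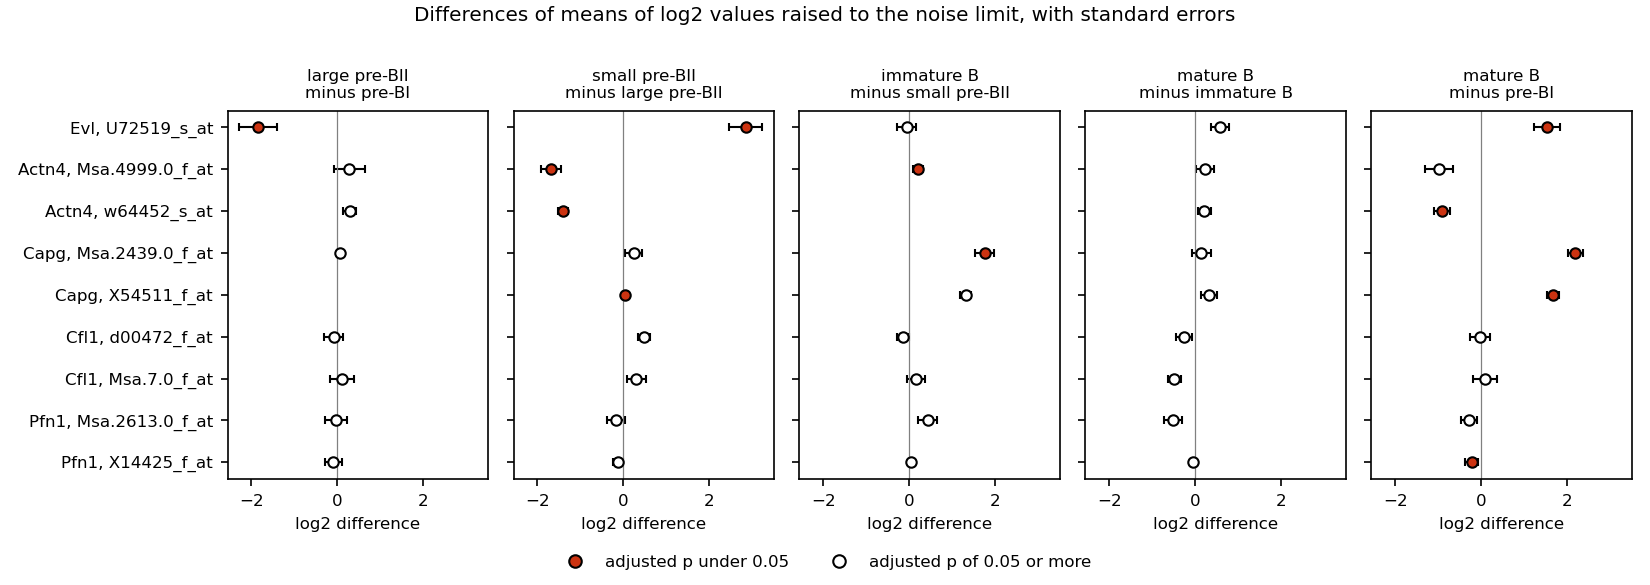
Log2 difference of population means (x axis) for each tested probe set (y axis) in 5 comparisons, from levels raised to the noise limit, with standard errors as bars and filled points where the adjusted p of the limma fit was under 0.05. Points are bounds where values of the dimmer population alone were raised, and none is drawn where both populations lie under the limit. Evl is at 2.85 and the Actn4 probe sets are at -1.68 and -1.41 between small and large pre-BII cells, and the Capg Msa probe set is at 1.75 between immature and small pre-BII cells.

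The 5 remaining pairs of populations place the members in the same way. Small pre-BII against pre-BI cells had 3 of 9 member probe sets called (Capg X54511_f_at higher and both Actn4 lower), against 7.86% of all probe sets. For that Capg probe set 0 of 6 pre-BI and 1 of 5 small pre-BII preparations were above the noise limit. Immature against pre-BI cells had 3 called (both Capg higher, Actn4 w64452_s_at lower), against 8.7%. Immature against large pre-BII cells had 4 called, against 8.09%, and mature against large pre-BII cells 4, against 10.9%, in both cases Evl and both Capg probe sets higher and Actn4 w64452_s_at lower. Mature against small pre-BII cells had 2 called (the Msa probe sets of Capg and of Actn4, both higher), against 4.59%. These comparisons share preparations with those above.

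The change of size ran beside a change in proliferation genes. Of 25 tested genes of DNA replication and mitosis, 24 fell from large to small pre-BII cells, with a median log2 difference of -2.67 against 0.06 over all tested probe sets. Their summed level was 87921 to 103110 in large and 8626 to 20124 in small pre-BII cells, and 52937 to 69914 in pre-BI cells. Evl was lowest and Actn4 highest where that sum was highest, and the part of cell cycle state in either difference was not tested. Cell size itself is given only by the sort gate and not as a measured value.

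Genes whose log2 levels ran most like each member over the 26 preparations, among tested genes of the same array set above the limit in at least 5 preparations, were as follows. For Evl they were Cr1l (r = 0.93), Rgl2 (r = 0.88) and Tle4 (r = 0.83). For the Capg Msa probe set they were H2-DMa (r = 0.86), H2-Eb1 (r = 0.84) and Cxcr5 (r = 0.83), and for X54511_f_at Cd74 (r = 0.88), Cnr2 (r = 0.86) and Cd53 (r = 0.86). H2-DMa, H2-Eb1 and Cd74 encode proteins of antigen presentation on MHC class II. For Actn4 w64452_s_at they were Tuba1a (r = 0.86), Rad54l (r = 0.85) and H2ax (r = 0.83), and for its Msa probe set Gar1 (r = 0.81), Hsp90aa1 (r = 0.78) and Slc35b2 (r = 0.77). The likest genes were less close for Cfl1, namely Myo1c on the first set (r = 0.73) and Ighv2-4 on the b set (r = 0.79), and for Pfn1, namely Fabp5 (r = 0.70) and Cd99 (r = 0.73). These values were picked as the highest among 4326 first-set and 1657 b-set genes, and all points share 5 population means.

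Other genes of the actin machinery were called about as often as all probe sets at the change of cell size. Of 138 listed genes in 8 groups, 70 were tested with 101 probe sets. Without the 5 members, 65 genes with 92 probe sets remained, of which 2 genes rose and 3 fell between large and small pre-BII cells, 5.43% of their probe sets against the 5.3% of all.

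Among the elongation and nucleation groups, Wipf1, whose protein binds and stabilises the Wiskott-Aldrich protein, rose 2.74-fold from a mean of 466 to 1269 (adjusted p = 0.0237 by limma). It was the 1 called gene of 13 tested for the Arp2/3 complex and its activators, and Evl was the 1 called gene of 5 tested for Ena/VASP and profilin. Formins had 0 of 3 probe sets called, and 0 at an unadjusted p under 0.05 by limma. At this step 1542 of all 10229 tested probe sets had such a p. In the capping and gelsolin group, Gsn, the severing and capping protein gelsolin, fell 1.43-fold with values of both populations raised (adjusted p = 0.0159 by limma), from a mean of 433 to 63.4, with overlap between preparations. Another Gsn probe set was lower too but was not called (adjusted p = 0.0917 by limma).

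Among filament-coating and crosslinking proteins, Tpm3, a tropomyosin, fell at least 2.07-fold (adjusted p = 0.0482 by limma) and Tagln2, a transgelin that binds filaments, fell 1.97-fold from a mean of 7738 to 4003 (adjusted p = 0.00759 by limma), both with overlap. Another Tpm3 probe set was not called (adjusted p = 0.678 by limma). Myl12b, a regulatory light chain of non-muscle myosin, rose 1.91-fold from 2150.3 to 4058 (adjusted p = 0.00772 by limma). The actin isoform genes had 0 of 10 probe sets called and 0 at an unadjusted p under 0.05 (limma). The cofilin and disassembly group had 0 of 6 called and 3 at an unadjusted p under 0.05 (limma), against 1542 of all 10229 tested probe sets.

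**Figure D3:**
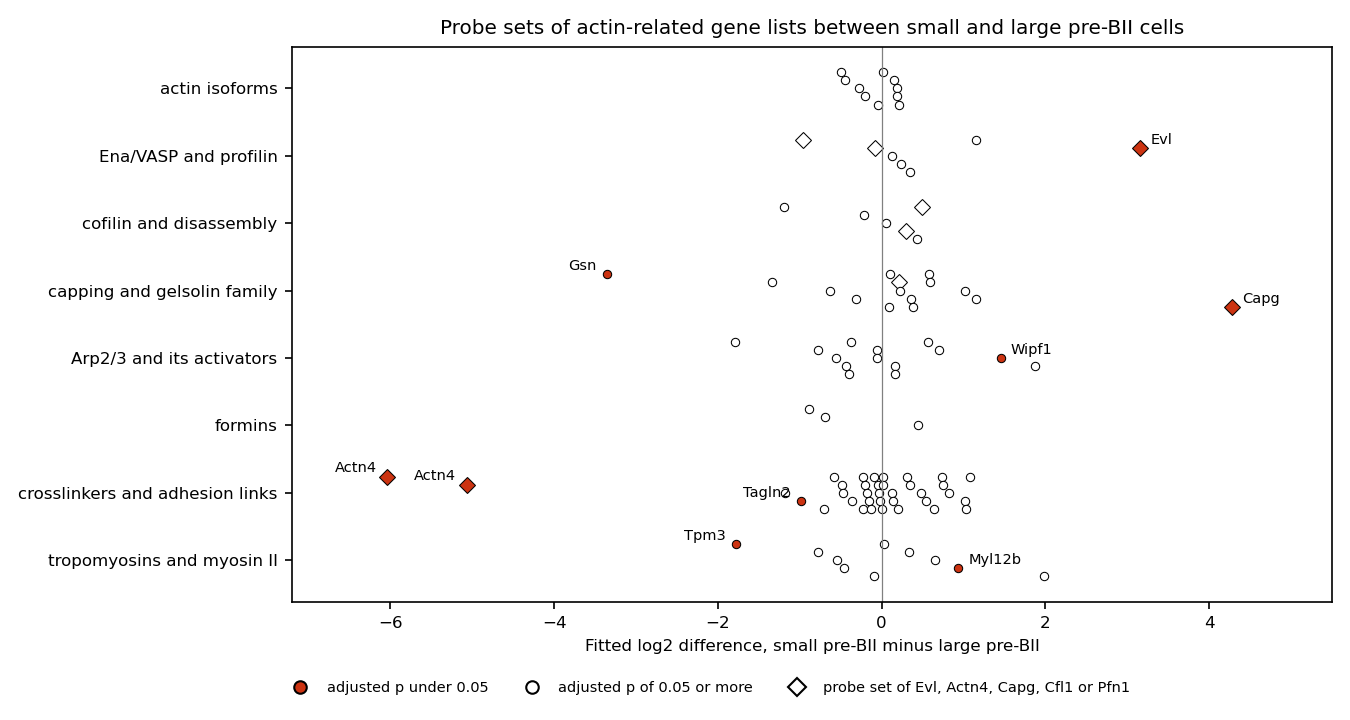
Fitted log2 difference between small and large pre-BII cells (x axis) for each tested probe set of 8 groups of actin-related genes (y axis). Filled symbols passed an adjusted p of 0.05 and are named, and diamonds are probe sets of the 5 genes described here. The called diamonds, both Actn4, Evl and Capg, lie at -6.04, -5.07, 3.15 and 4.28, of which those under the noise limit in 1 population depend on the floor.

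In the other consecutive steps further genes of these groups were called. Without the 5 members, the share of probe sets called was 2.17% from pre-BI to large pre-BII (1.87% of all), 6.52% from small pre-BII to immature (2.19% of all) and 5.43% from immature to mature cells (1.35% of all). Of these 92 probe sets, 4 rose and 2 fell from small pre-BII to immature cells. From immature to mature cells 5 fell, for 3 genes, and 3 of the 5 were probe sets of Marcks. Lcp1, which encodes the leukocyte bundling protein L-plastin, fell 2.58-fold from pre-BI to large pre-BII cells (adjusted p = 0.000119 by limma) and rose 4.03-fold from small pre-BII to immature cells (adjusted p = 1.77e-07 by limma). Another tested Lcp1 probe set was not called at either step. Myl4, a myosin light chain, rose 7.50-fold from pre-BI to large pre-BII cells (adjusted p = 6.75e-08 by limma) and fell at least 5.09-fold from immature to mature cells (adjusted p = 8.28e-10 by limma). Cnn3, a calponin, rose at least 4.31-fold (adjusted p = 0.000419) and Arpc5l, an Arp2/3 subunit, 2.05-fold (adjusted p = 0.0165) from small pre-BII to immature cells (limma). Another tested Arpc5l probe set was not called there. From immature to mature cells, Marcks, which links filaments to the membrane, fell at least 2.59-fold by its brightest called probe set (adjusted p = 4.06e-05) and Eps8, a capping and bundling protein, at least 1.77-fold (adjusted p = 0.0319) by limma.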

How the data were processed

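RNA of 26 preparations of 5 sorted populations was measured on 2 oligonucleotide array sets. The deposited tables hold 1 linear intensity per probe set and array, computed by the authors, with negative values. Their scanning, summary and scaling are not given in the sources used here. Symbols came from the array annotation (7542 probe sets with 1 symbol, 224 with several, 5303 with none).

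After removal of 110 control probe sets, each set (6584 and 6595 probe sets on 28 and 27 arrays) was quantile-normalised, because array brightness differed 5.60-fold and 4.22-fold by the 2% trimmed mean. Repeat arrays of a preparation were averaged. The 40th percentile of a set (87.6 and 6.89) served as floor before the log2 step. The 5019 and 5210 probe sets that exceeded the floor in 5 or more preparations were fitted with limma 3.58.1 in R 4.3.3, using 1 mean per population and eBayes with trend, and p-values were adjusted over both sets (Benjamini-Hochberg, threshold 0.05). The fit was tested on simulated data with changes placed only in probe sets well above the floor, so that test does not cover changes at levels near it. The noise limit was exceeded by 40% of first-set and 20.1% of b-set values, and precision is limited by how many arrays there are. Figures were drawn with matplotlib.

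Every probe set of the 5 genes is reported. From the actin lists, up to 4 called genes per list were named at the large to small step, and up to 2 in each other consecutive step. One group of genes upstream of actin is not reported here. The genes and all lists were chosen with earlier results of these data known. Alternatives covered scaling, floor, filter, variance trend, repeat arrays, batches, sort number as a block and leaving out each preparation.

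The labels number the sorts without saying what a shared number means. Between equally numbered preparations, deviations from the population means correlated at r = 0.11 to 0.30 for large pre-BII and pre-BI (5 pairs), 0.14 to 0.25 for immature and small pre-BII (3), 0.12 to 0.21 for mature and immature (4), 0.0032 to 0.24 for small and large pre-BII (4) and 0.06 to 0.24 for mature and pre-BI cells (4). By the rule that every pair must exceed 0.1, the numbers paired the first 3 of these comparisons.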

Additional observations from a re-analysis of the deposited data

Results flagged for a closer look

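The Actn4 probe set w64452_s_at read 156 in small pre-BII sort 10, while the other 4 small pre-BII preparations lay between -251 and -160.4. The gap to its nearest neighbour was 0.778 of the whole range of the group, above the critical value for a group of 5. It was the 1 such case among 45 groups examined, and chance flags about 1 in 20 groups. The value was under the noise limit of 319, and the fall of Actn4 from large to small pre-BII cells was called without this preparation as well.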

How the results depend on the processing

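No called difference of a member changed direction under an alternative. In each fit that left out 1 preparation, the 4 calls between small and large pre-BII cells, the 1 between large pre-BII and pre-BI cells and the 5 between mature and pre-BI cells were made again. The count for immature against small pre-BII cells ranged from 1 to 2, because the Actn4 Msa probe set was lost without small pre-BII sort 8 or 9. Over those fits the probe sets called ranged from 143 to 212 (large pre-BII against pre-BI), 457 to 573 (small against large pre-BII), 188 to 228 (immature against small pre-BII), 106 to 149 (mature against immature) and 955 to 1142 (mature against pre-BI).

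On values as deposited, without normalisation between arrays, the counts in the same order were 48, 227, 75, 53 and 528, against 191, 542, 224, 138 and 1106. The members called were 0 for large pre-BII against pre-BI and 1 for immature against small pre-BII cells. The split of rises and falls between small and large pre-BII cells was 208 and 334 (38.4% rises) as reported and 46 and 181 (20.3%) on deposited values, and between immature and small pre-BII cells it was 59.8% and 70.7% rises. Trimmed-mean scaling moved the median log2 difference of all probe sets between small and large pre-BII cells to 0.15, from 0.06. A floor at the 60th percentile called 289 for large pre-BII against pre-BI. At the noise limit as floor, fewer probe sets were tested (5310). On the b set the 25th percentile lay under 0, so the low floor there was 1. Leaving out second arrays left 1 member called for immature against small pre-BII cells.

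The adjusted p-values given for the members are from the fit without sort number as a block. With sort number as a replicate block, 327 probe sets were called for large pre-BII against pre-BI, and the members called were the same number in all 5 comparisons. In immature against small pre-BII cells 161 probe sets rose and 122 fell with the block, against 134 and 90 without it. In mature against immature cells the numbers were 77 and 95 with it, against 63 and 75. For small against large pre-BII and mature against pre-BI cells, where the numbers were not taken to pair, the block moved the counts to 737 and 1294.

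Within sorts 1 to 3, with fewer samples, the counts were 15, 114, 39, 31 and 373 in the same order, and members called were 0 for large pre-BII against pre-BI, 0 for immature against small pre-BII, 1 for mature against immature (Actn4 w64452_s_at) and 2 for mature against pre-BI. Within sorts 8 to 11 they were 79 for large pre-BII against pre-BI, 136 for immature against small pre-BII and 73 for mature against immature. In that early batch small pre-BII, large pre-BII, immature and mature cells have 2 preparations each. Of the values of single member probe sets under all alternatives, 1729 stayed on the same side of the threshold. Among these, called differences kept their direction, and uncalled ones moved by less than the spread, some with a change of sign. A further 20 lost a call, 6 gained one and 9 uncalled values moved by more than the spread. Signal limits the Pfn1 readings and the lower end of the Capg and Actn4 readings, which lie under the noise limit and carry no order.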
